A study of Mus musculus with 10 samples.

Results

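The miR-130/miR-301 and miR-148/miR-152 families were followed through all their mouse hairpins that carry these names in the annotation. These are Mir130a, Mir130b, Mir301 and Mir301b for miR-130/miR-301, and Mir148a, Mir148b and Mir152 for miR-148/miR-152, which makes 7 hairpins of the 1174 miRNA hairpins used. The rule that defines the set is the names. Each hairpin can give a 5p and a 3p arm, so there were 14 arms to describe.

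Small RNA was sequenced from mouse primordial germ cell-like cells (mPGCLCs), which are made in culture from embryonic stem cells, and from the cells that surrounded them in the same kind of embryoid body (non-PGCLCs). The embryoid bodies were taken at day 6 in 10 libraries, with 2 replicates in each of 5 groups, E14 mPGCLC, E14 non-PGCLC, BG5 mPGCLC, BG5 non-PGCLC and SGET non-PGCLC. The libraries are described as biological duplicates, but nothing says whether a pair came from separate inductions, so p-values measure the spread between these samples, which may be partly technical. SGET mPGCLCs were not analysed here, so the cell types could be compared in E14 and BG5.

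All lines were male. E14 is a line of the 129/Ola strain without a reporter, BG5 carries Blimp1-GFP on a C57BL/6J/DBA/129 background, and SGET carries Stella-GFP and Esg1-tdTomato on a B6CBA/129 background. All groups had passed through epiblast-like cells and then received the same induction medium, with BMP4, LIF, SCF, BMP8 and EGF. In the study's methods E14 mPGCLCs were taken as Ssea1+ Cd61+ cells and BG5 mPGCLCs as Ssea1+ Blimp1-GFP+ cells, whereas the sample labels give the SGET reporter gate for every library. Line, strain and gate therefore cannot be told apart. The non-PGCLCs are a mixture of the embryoid body's remaining cells.

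The libraries held 7421061 to 14444567 mapped reads, of which 14.9% to 34.3% were assigned to miRNAs. Reads of the pluripotent and early germ cell list, the miR-290 and miR-302 clusters, made up 55719 to 59935 of every 1000000 mapped reads of the library (RPM) in E14 mPGCLCs and 27035 to 36519 RPM in E14 non-PGCLCs. The same list stood at 21611 to 27757 RPM in BG5 mPGCLCs, 2703 to 3572 RPM in BG5 non-PGCLCs and 41448 to 48441 RPM in SGET non-PGCLCs, so it was high in some cells labelled non-PGCLC too. The 6 hairpins of the mesenchyme list summed to 17982 to 28680 RPM in BG5 non-PGCLCs and to at most 2226 RPM in every other library. The epithelium list (5 hairpins) was at 1114 to 4337 RPM, the endothelium list (1 of 2 hairpins with reads) at 12.1 to 132 RPM and the blood list (1 of 4 hairpins with reads) at 0 to 62.2 RPM. The part of these differences in the results below was not tested, and in sorted bulk cells fewer cells of a type and less RNA per cell cannot be told apart.

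A miRNA is cut from its hairpin as a duplex, and 1 strand, the guide, is usually kept in an Argonaute protein while the other is lost. The guide finds target mRNAs mainly through its seed, bases 2 to 8. The miR-130/miR-301 family is known from the proliferation of stem, vascular and tumour cells, and the miR-148/miR-152 family from the repression of Dnmt1, the maintenance DNA methyltransferase. Both families recognise related sites because the seeds of their 3p arms hold the same 6 letters in different registers.

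The mature 3p sequences are shown first, since their seeds define the families. They are RefSeq sequences on GRCm38.p6, written 5′ to 3′ with the seed in capitals. RefSeq entries were found for 13 of the 14 arms, and miR-301b-3p had none.
miR-130a-3p: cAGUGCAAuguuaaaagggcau
miR-130b-3p: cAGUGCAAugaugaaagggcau
miR-301a-3p (Mir301): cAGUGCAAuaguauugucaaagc
miR-148a-3p: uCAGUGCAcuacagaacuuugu
miR-148b-3p: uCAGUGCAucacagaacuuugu
miR-152-3p: uCAGUGCAugacagaacuugg

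The printed miR-130/miR-301 sequences share the seed AGUGCAA and the miR-148/miR-152 sequences the seed CAGUGCA. The 6 letters AGUGCA begin at base 2 in the former and at base 3 in the latter. The 5p sequences of the miR-130/miR-301 family are given too, because for Mir130b and Mir301b these arms held more reads than the 3p arms.
miR-130a-5p: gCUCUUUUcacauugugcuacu
miR-130b-5p: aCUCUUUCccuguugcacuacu
miR-301a-5p (Mir301): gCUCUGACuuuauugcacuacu
miR-301b-5p: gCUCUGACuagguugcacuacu

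The 5p arms fell into 3 seeds. Mir301 and Mir301b shared CUCUGAC, whereas Mir130a and Mir130b each had a seed of its own. The 5p arms of Mir148a and Mir148b shared the seed AAGUUCU, and that of Mir152 was AGGUUCU.

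On GRCm38, 5 of the 7 hairpins lay within introns of protein-coding genes, on the same strand, in GENCODE M21. Mir130b (chr16:17124061-17124142, minus strand) and Mir301b (chr16:17124400-17124496, minus strand) were separated by 257 bases in an intron of 2610318N02Rik. Mir301 (chr11:87113004-87113089, plus strand) was in an intron of Ska2, a gene of the spindle and kinetochore complex. Mir148b (chr15:103285125-103285221, plus strand) and Mir152 (chr11:96850393-96850465, plus strand) were in introns of Copz1 and Copz2, a pair of paralogous genes for the zeta subunit of the COPI coat. Mir130a (chr2:84741115-84741178, minus strand) and Mir148a (chr6:51269812-51269910, minus strand) overlapped no other annotated gene.

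Together the 7 hairpins took 0.331% to 0.885% of the miRNA reads of a library. Mir148a-3p and Mir130b-5p were the arms with the most reads, with medians of 495 and 467 RPM over the 10 libraries. Mir148b-3p, Mir130b-3p and Mir152-3p followed with medians of 163, 105 and 99.6 RPM, and Mir130a-3p had 47.1 RPM. The remaining 8 arms had medians of 0 to 22.3 RPM, and each of them had no read in at least 1 library. RPM values compare reads between arms without a length correction, which is small for arms of nearly equal length.

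**Figure D1:**
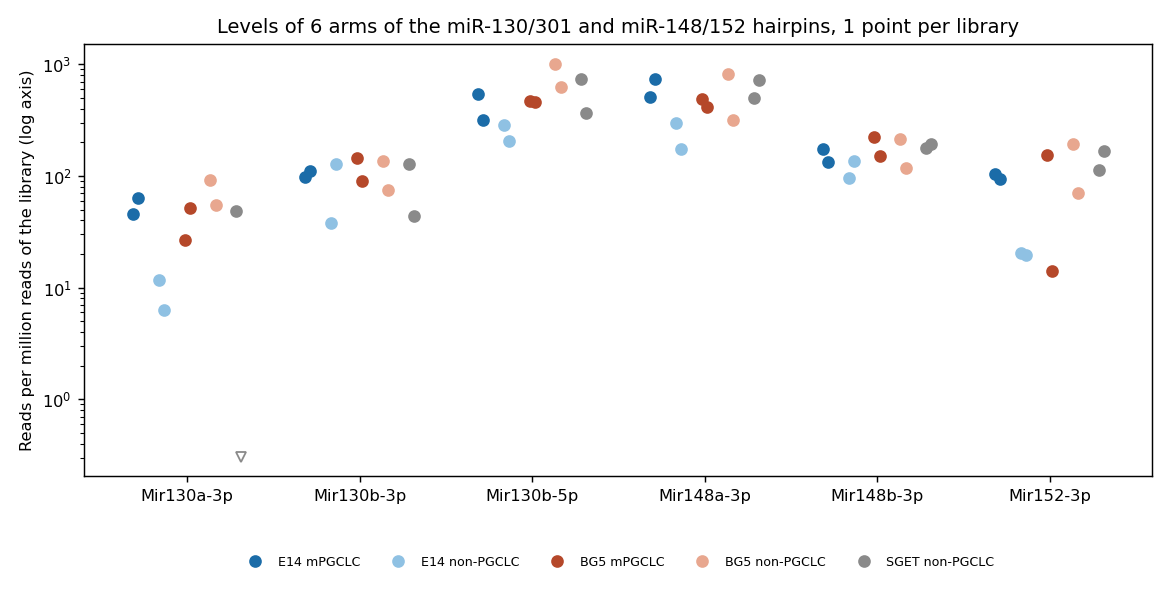
RPM in the library (log axis) for 6 arms, with 1 point per library coloured by group. The open triangle is a library with no read, drawn at the level that 3 reads would give. Mir148a-3p spans 174 to 822 RPM and Mir130b-5p 205 to 1014 RPM, with both E14 non-PGCLC libraries lowest for each.

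Mir148a-3p, the main miRNA of its family here, was at 508 and 736 RPM in E14 mPGCLCs and at 299 and 174 RPM in E14 non-PGCLCs. In BG5 it was at 489 and 415 RPM in mPGCLCs and at 822 and 318 RPM in non-PGCLCs. SGET non-PGCLCs had 500 and 721 RPM. The E14 groups did not overlap, the BG5 non-PGCLC libraries lay on both sides of the BG5 mPGCLCs, and in the order of group means only the step from BG5 mPGCLC (452 ± 52.6 RPM (SD, n = 2)) to E14 non-PGCLC (237 ± 88.5 RPM (SD, n = 2)) separated neighbours whose replicates did not overlap.

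Mir148b-3p had the narrowest range of the 6 arms as a fold between its highest and lowest library. It was at 174 and 133 RPM in E14 mPGCLCs, 96.3 and 136 RPM in E14 non-PGCLCs, 225 and 151 RPM in BG5 mPGCLCs, 214 and 117 RPM in BG5 non-PGCLCs and 176 and 193 RPM in SGET non-PGCLCs. Every neighbouring pair of groups overlapped.

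Mir152-3p was low in both E14 non-PGCLC libraries, at 20.3 and 19.8 RPM, against 105 and 94.6 RPM in E14 mPGCLCs. In BG5 mPGCLCs it was at 155 RPM in replicate 1 and 14.2 RPM in replicate 2, the lowest value of all libraries. BG5 non-PGCLCs had 195 and 70.5 RPM and SGET non-PGCLCs 113 and 168 RPM. The lower libraries rested on few different sequences, 1 and 3 in E14 non-PGCLCs and 4 in replicate 2 of BG5 mPGCLCs, whereas E14 mPGCLCs had 9 in each.

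In the miR-130/miR-301 family, Mir130b gave 85.2% of all reads. Its 5p arm was at 542 and 320 RPM in E14 mPGCLCs, 285 and 205 RPM in E14 non-PGCLCs, 471 and 464 RPM in BG5 mPGCLCs, 1014 and 630 RPM in BG5 non-PGCLCs and 733 and 367 RPM in SGET non-PGCLCs. The BG5 non-PGCLC libraries were above both BG5 mPGCLC libraries on this scale, and the E14 non-PGCLC libraries were below both E14 mPGCLC libraries. Its 3p arm, which carries the family's seed, was at 98.1 and 111 RPM in E14 mPGCLCs, 37.6 and 127 RPM in E14 non-PGCLCs, 146 and 89.3 RPM in BG5 mPGCLCs, 135 and 75.0 RPM in BG5 non-PGCLCs and 129 and 43.9 RPM in SGET non-PGCLCs, and every neighbouring pair of groups overlapped.

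Mir130a-3p had the second share of the family's 3p reads, 23.7%, against 58.8% for Mir130b-3p. It was at 45.3 and 63.4 RPM in E14 mPGCLCs and at 11.6 and 6.36 RPM in E14 non-PGCLCs. BG5 mPGCLCs had 26.8 and 51.9 RPM and BG5 non-PGCLCs 92.6 and 55.3 RPM, so the order of the cell types on this scale differed between the lines. SGET non-PGCLCs had 48.8 RPM in replicate 1 and no read in replicate 2, where 0 of 9775392 reads allows up to 0.307 RPM.

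Mir301-3p and Mir301b-5p were the major arms of the other pair. Mir301-3p had 116 and 329 reads in E14 mPGCLCs, 22 and 455 in E14 non-PGCLCs, 0 and 320 in BG5 mPGCLCs, 290 and 0 in BG5 non-PGCLCs and 514 and 0 in SGET non-PGCLCs. Mir301b-5p had 187 and 0 reads in E14 mPGCLCs, 0 and 7 in E14 non-PGCLCs, 308 and 239 in BG5 mPGCLCs, 836 and 590 in BG5 non-PGCLCs and 112 and 0 in SGET non-PGCLCs. In replicate 2 of SGET non-PGCLCs Mir130b was the only hairpin of the family with reads. Libraries of the same group differed between no read and many, and the reads of a library came from at most 10 different sequences for Mir301-3p and 3 for Mir301b-5p. Of the minor arms, Mir130b-3p had reads in 10 libraries, Mir148a-5p in 9, Mir301b-3p in 7, Mir301-5p in 6, Mir130a-5p in 4, Mir152-5p in 2 and Mir148b-5p in 1. PCR copies are counted as reads in these files, so the limits given for a count of 0 cover counting error only.

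The hairpins differed in which arm had more reads, and the 5p arm led for Mir130b and Mir301b. The 3p arm held nearly all reads of the miR-148/miR-152 hairpins, and over all libraries the 5p arm had 1.99% of the reads of Mir148a, 0.368% of those of Mir148b and 6.41% of those of Mir152. In the miR-130/miR-301 family the 5p arm held 83.7% of the reads of Mir130b (53282 reads against 10384), 68.6% of those of Mir301b (2279 against 1043), 36.9% of those of Mir301 (1195 against 2046) and 6.51% of those of Mir130a. The 5p arm of Mir130b was ahead in 10 of 10 libraries, with 61.7% to 89.4%. For Mir301b it was ahead in 6 of the 8 libraries with at least 10 reads, with a range from 0% to 100%. Among 250 hairpins with at least 1000 reads and no arm merged with another hairpin's, 117 (46.8%) had more 5p than 3p reads, so a 5p majority was not in itself unusual.

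**Figure D2:**
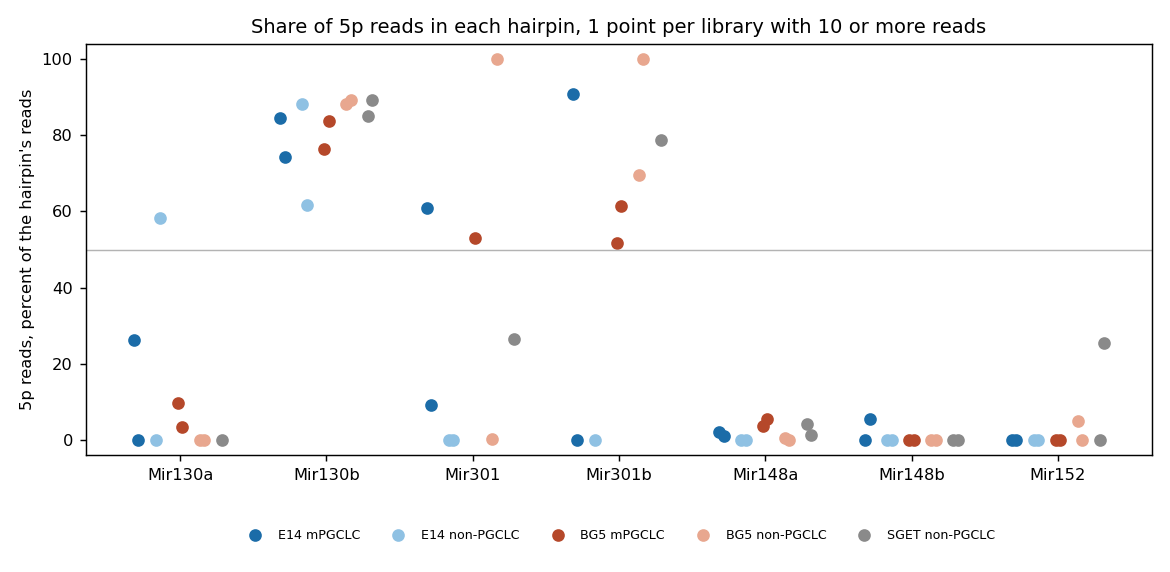
Reads of the 5p arm as a percentage of the reads of the hairpin, with 1 point per library that had at least 10 reads of the hairpin. Mir130b lies above 50% in all 10 libraries, Mir301 and Mir301b scatter from 0% to 100%, and the miR-148/miR-152 hairpins stay at or below 25.4%.

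Because of the 5p reads, the families were nearly equal when all arms were summed and far apart when the arms with the family seed were summed. The ratio of miR-148/miR-152 to miR-130/miR-301 reads had a median of 0.965 over all arms, from 0.609 to 2.79, and was above 1 in 5 of 10 libraries. Over the 3p arms the median ratio was 4.14, from 1.96 to 24.6, and was above 1 in 10 of 10 libraries. The highest ratio was in replicate 2 of SGET non-PGCLCs, where 3 of the 4 miR-130/miR-301 hairpins had no read, and the next was 7.02 in replicate 1 of E14 non-PGCLCs.

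The minor-arm share of Mir148a did not overlap between the cell types of E14 and BG5, but SGET non-PGCLCs lay among the mPGCLC values. The share of all miRNA hairpins that separate these libraries in this way is not given. Mir148a-5p made up 2.03% and 1.12% of the reads of the hairpin in E14 mPGCLCs and 3.54% and 5.60% in BG5 mPGCLCs. In non-PGCLCs it made up 0.0450% and 0% in E14 and 0.601% and 0.0218% in BG5. All 4 mPGCLC libraries were above all 4 non-PGCLC libraries of these lines, with means of 3.07% ± 1.96 (SD, n = 4) and 0.167% ± 0.290 (SD, n = 4). The difference of 2.90 percentage points gave p = 0.0286 in a two-sided exact permutation test, the smallest p that 4 against 4 libraries can give, and p = 0.0556 when libraries were rearranged within each line only, again the smallest possible in that exact test. Over the 14 share tests the adjusted p was 0.4 (exact permutation test), and a single hairpin could not have gone lower in this design. SGET non-PGCLCs, which were not in the test, had 4.13% and 1.26%, within the range of the mPGCLCs. The shares rest on 0 to 310 reads of the 5p arm and 0 to 6 different sequences per library.

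The minor arm of Mir130b, here the 3p arm, had a mean share of 20.2% ± 5.25 (SD, n = 4) in mPGCLCs and 18.1% ± 13.5 (SD, n = 4) in non-PGCLCs, a difference of 2.13 percentage points (exact permutation p = 0.8, adjusted p = 1). The non-PGCLC libraries of E14 alone went from 11.6% to 38.3%. The other 5 hairpins had an adjusted p of 1 in the same exact test, and for Mir130a, Mir301 and Mir301b libraries with under 10 reads had no share.

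The 3′ ends of the 3p arms differed between Mir148a and Mir148b, while Mir152 overlapped both in the share that went on with U and only Mir148b in the share that went on with the hairpin's next base. Below, the 2 most frequent reads of each 3p arm are set beside the hairpin, with the bases that follow the RefSeq mature end in capitals. In Mir148b and Mir152 the base U in the read is not the base of the hairpin.
Mir148a-3p, most frequent read: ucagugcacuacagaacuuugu
Mir148a-3p, next read: ucagugcacuacagaacuuuguC
Mir148a hairpin: ucagugcacuacagaacuuuguCUCU
Mir148b-3p, most frequent read: ucagugcaucacagaacuuuguU
Mir148b-3p, next read: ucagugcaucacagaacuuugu
Mir148b hairpin: ucagugcaucacagaacuuuguCUCG
Mir152-3p, most frequent read: ucagugcaugacagaacuugg
Mir152-3p, next read: ucagugcaugacagaacuuggU
Mir152 hairpin: ucagugcaugacagaacuuggGCCC

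Mir148b-3p was mostly a read of 23 nucleotides (nt) with a U at its end. Among its 15467 reads that held the whole mature sequence of 22 nt from its first base, 61.9% went on with U, 28.5% ended there, 8.50% went on with A and 0.853% with the C of the hairpin. The share with U was 74.0% and 53.5% in E14 mPGCLCs, 92.1% and 44.1% in E14 non-PGCLCs, 73.4% and 58.1% in BG5 mPGCLCs, 59.4% and 47.5% in BG5 non-PGCLCs and 63.3% and 70.3% in SGET non-PGCLCs. It was the most frequent ending in every library and line, and the cell types overlapped in E14 and in BG5.

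Mir148a-3p ends in the same letters and has the same C next in the hairpin, yet it went on with that C. Of 47339 such reads, 35.5% went on with C, 59.6% ended at the mature end and 2.02% went on with U. The share with C was 23.6% to 67.0% over the 10 libraries, against 0% to 6.62% for Mir148b-3p, and the share with U was 0.0145% to 8.68% against 44.1% to 92.1%. These ranges did not overlap.

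For Mir152-3p the endings varied more between libraries. Of 9296 such reads, 50.6% ended at the mature end of 21 nt, 44.8% went on with U and 2.89% with the G of the hairpin. The share with U was 46.0% and 42.2% in E14 mPGCLCs, 75.8% and 78.05% in BG5 mPGCLCs, 52.0% and 55.8% in BG5 non-PGCLCs and 26.9% and 32.6% in SGET non-PGCLCs, and it was 0% in both E14 non-PGCLC libraries, so its range overlapped those of Mir148a-3p and Mir148b-3p. The share with the hairpin's G was 0% to 16.8%, below the 23.6% to 67.0% of Mir148a-3p with its C. The fewest such reads were in replicate 2 of BG5 mPGCLCs, where the highest share, 78.05%, was 64 of 82 reads. The E14 non-PGCLC libraries held 151 and 190 such reads, from at most 3 different sequences. Whether a U was added to the RNA after cutting or encoded in the lines was not tested.

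**Figure D3:**
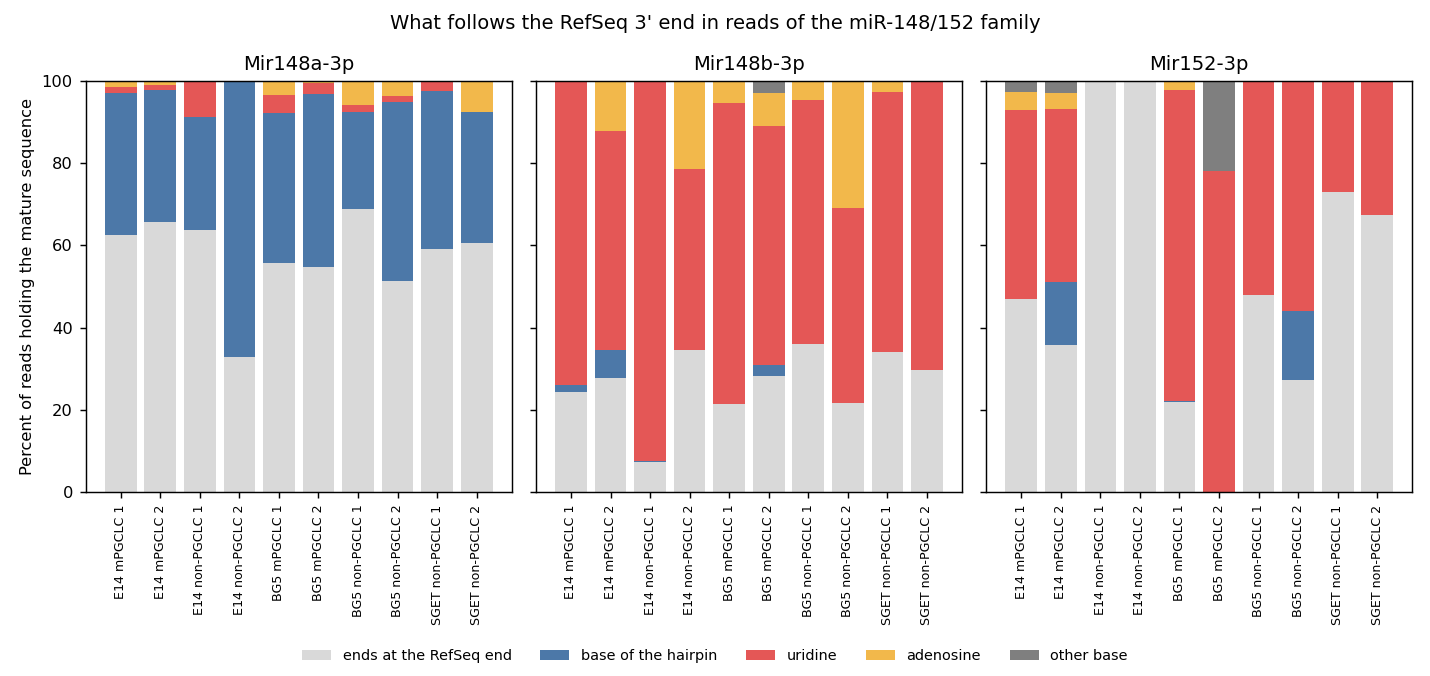
Reads of the miR-148/miR-152 3p arms that hold the RefSeq mature sequence, split by what follows it (percent of these reads, 1 bar per library). Uridine, which is not the next base of any of these hairpins, is the largest part for Mir148b-3p in all 10 libraries (44.1% to 92.1%), and at most 8.68% for Mir148a-3p.

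In the miR-130/miR-301 family, reads with only U beyond the hairpin's letters were 12.7% of Mir301-3p, 5.01% of Mir130b-3p, 3.04% of Mir130a-3p, 3.03% of Mir301b-5p and 1.30% of Mir130b-5p reads, against 61.5% of all Mir148b-3p reads counted the same way. Those of Mir301-3p came from 2 libraries, replicate 1 of E14 mPGCLCs (45.7%) and replicate 1 of SGET non-PGCLCs (40.1%), and those of Mir301b-5p from replicate 2 of BG5 mPGCLCs (28.9%). Those of Mir130a-3p were mostly in replicate 1 of SGET non-PGCLCs (15.8%), with at most 2.82% elsewhere. For Mir130b-3p the share with U was 0.358% and 5.55% in E14 non-PGCLCs and 6.18% and 32.0% in BG5 non-PGCLCs, against 0% to 0.0831% in the 4 mPGCLC libraries. It was 0% and 0.233% in SGET non-PGCLCs, so within E14 and BG5 the cell types did not overlap and over all lines they did. This was picked out after the values were seen and was not tested. Reads with only A there were 18.4% of Mir130b-3p and 20.7% of Mir130a-3p reads, and ranged from 0.233% to 81.0% and from 0% to 54.5% between libraries. Mir130b-5p mostly ended at 22 nt (82.4% of reads).

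The 5′ end sets the seed, and most 3p reads started where RefSeq has the first base. For Mir148a-3p 97.4% of reads did so, for Mir148b-3p 94.8%, for Mir152-3p 98.7%, for Mir130a-3p 99.98% and for Mir130b-3p 94.8%. For Mir301-3p it was 95.5%, with 72.0% in its lowest library, replicate 2 of E14 mPGCLCs. A start 1 base later gives the miR-148/miR-152 reads the letters AGUGCA at bases 2 to 7, the register of the miR-130/miR-301 seed. This was seen for 2.502% of Mir148a-3p reads (1238 reads, 0% to 6.41% by library), 3.84% of Mir148b-3p reads (634 reads, 0% to 16.1%) and 0.668% of Mir152-3p reads (64 reads). All 64 were in replicate 2 of E14 non-PGCLCs, where they made up 25.1%. A start 1 base earlier, which would give miR-130/miR-301 reads the CAGUGCA seed, was seen in 1 read of Mir130a-3p and in no read of the 3 other hairpins.

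The shifted share, which counts reads that start at any base other than the arm's most frequent start, did not separate the cell types. It joins earlier and later starts. For Mir148b-3p 105 reads started 1 base earlier, all in replicate 1 of E14 non-PGCLCs, where they made up 14.7% of its reads. For Mir148a-3p the shifted share was 2.54% ± 2.73 (SD, n = 4) in mPGCLCs and 2.81% ± 2.75 (SD, n = 4) in non-PGCLCs of E14 and BG5, a difference of -0.27 percentage points (exact permutation p = 0.857, adjusted p = 1). For Mir148b-3p it was 6.18% ± 6.92 (SD, n = 4) and 8.33% ± 6.13 (SD, n = 4), a difference of -2.15 points (exact permutation p = 0.714, adjusted p = 1). For Mir130b-5p the difference was -0.77 points (exact permutation p = 0.886, adjusted p = 1). The other 4 major arms had an adjusted p of 1 too, and 3 of the hairpins had libraries with fewer than 10 reads of the arm, which had no share. Of these, Mir301b-5p had a shifted share of 100% in replicate 2 of BG5 non-PGCLCs (590 reads) and 0% in the other libraries with a share.

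The main comparison asked which miRNAs differed between mPGCLCs and the surrounding cells. Over E14 and BG5 together, none of the 13 arms of the families that passed the filter on low counts was called by edgeR's quasi-likelihood test (adjusted p under 0.05), while 83 of 561 arms (14.8%) were called. Mir148b-5p, with 61 reads in 1 library, did not pass the filter. At an unadjusted p under 0.05 edgeR had 1 of the 13, Mir148a-3p, against 23.4% of all arms. DESeq2 called 3 (Mir148a-5p, Mir152-5p and Mir301-5p), each with no read in 1 to 8 libraries, against 25.5% of all arms. The median log2 change of the 13 arms was 1.04, the value of Mir152-3p, and that of all 561 arms 0.14. Every arm above 1.04 had no read in at least 1 library and a 95% interval that included no change. The largest was Mir301-5p at 5.65 (-1.39 to 12.7). Below 1.04, Mir301-3p (0.77) and Mir152-5p (-3.96) also had libraries without a read. The arms with reads in every library had log2 changes from 0.30 (Mir130b-5p) to 1.04.

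Mir148a-3p was the nearest to the threshold. Its estimate was 1.80-fold higher in mPGCLCs (log2 change 0.84 ± 0.30 (SE), 95% confidence interval 0.21 to 1.48, adjusted p = 0.0723 in edgeR's quasi-likelihood test). Without replicate 1 of BG5 non-PGCLCs, its highest library, the log2 change was 1.20 and edgeR's adjusted p was 0.00826, with 95 (13.3%) of all arms called. It also passed when only the compared samples were fitted (edgeR adjusted p = 0.0344, 18.3% of all arms called) and with a filter of 10 reads in 5 libraries (edgeR adjusted p = 0.0441, 21.1% called). It did not pass in the other 15 of 18 alternatives, where total-read scaling gave a log2 change of 0.53 with the highest adjusted p, 0.492 in edgeR.

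**Figure D4:**
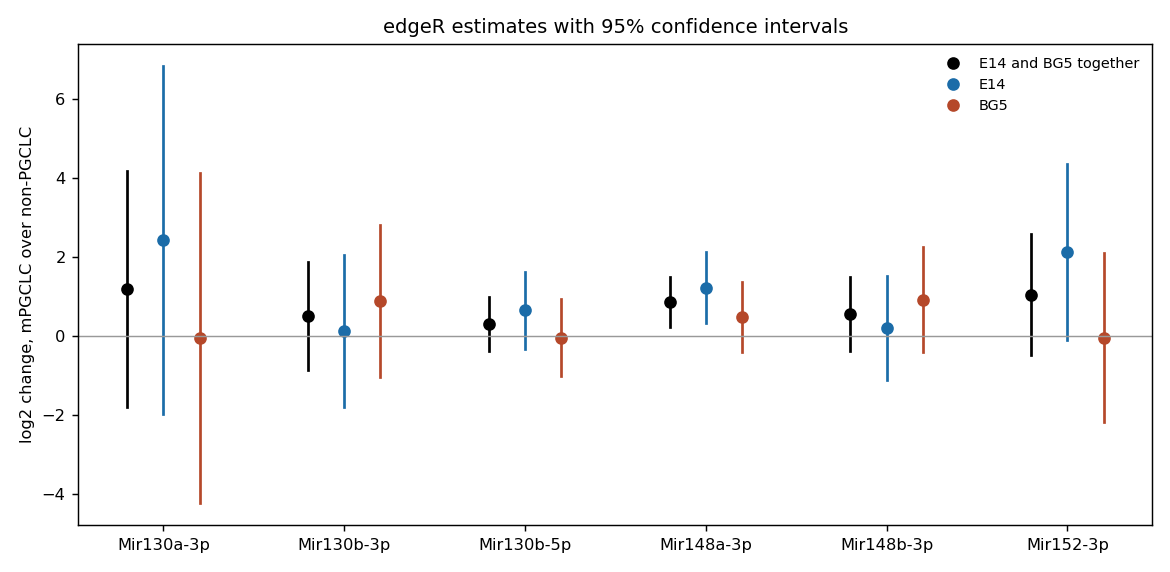
edgeR log2 changes of mPGCLC over non-PGCLC with 95% confidence intervals for 6 arms, over E14 and BG5 together (black) and within E14 (blue) and BG5 (red). The Mir148a-3p interval runs from 0.21 to 1.48 over both lines and from -0.42 to 1.37 in BG5, and that of Mir130a-3p is the widest.

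The other 5 arms with broad coverage had intervals that included no change. Over both lines the log2 change was 0.56 (95% interval -0.38 to 1.49) for Mir148b-3p, 1.04 (-0.50 to 2.57) for Mir152-3p, 0.30 (-0.39 to 0.98) for Mir130b-5p, 0.49 (-0.87 to 1.86) for Mir130b-3p and 1.18 (-1.82 to 4.18) for Mir130a-3p. Over the 18 alternatives, none of which called any of these 5 arms, the log2 change was 0.29 to 0.76 for Mir148b-3p, -0.11 to 1.44 for Mir152-3p, 0.00015 to 0.49 for Mir130b-5p, 0.17 to 1.12 for Mir130b-3p and 0.71 to 1.47 for Mir130a-3p. Without replicate 1 of BG5 mPGCLCs, the value of Mir152-3p went to 0.00012. That of Mir130b-5p went to 0.053 without replicate 1 of E14 mPGCLCs, and to 0.00015 with total-read scaling. That of Mir130b-3p went to 0.17 without replicate 1 and to 1.12 without replicate 2 of E14 non-PGCLCs. The narrowest of these intervals, that of Mir130b-5p, left room for a change of up to 1.98-fold, so the test does not show that the levels were alike. The common dispersion of the fit, taken over all tested arms together, was 2.01 and is not the spread of these 5 arms. Their standard errors on the log2 scale ran from 0.325 for Mir130b-5p to 1.42 for Mir130a-3p.

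Within E14, 0 of 13 arms were called by edgeR against 2.85% of all arms, 1 (Mir148a-3p) had an unadjusted p under 0.05 against 11.6%, and DESeq2 called 2 against 10.6%. Mir148a-3p had a log2 change of 1.22 (95% interval 0.31 to 2.12, edgeR adjusted p = 0.210), Mir152-3p 2.12 (-0.11 to 4.36), Mir130a-3p 2.42 (-1.99 to 6.83), Mir130b-5p 0.64 (-0.33 to 1.62), Mir148b-3p 0.20 (-1.12 to 1.52) and Mir130b-3p 0.11 (-1.81 to 2.03). Within BG5, 0 of 13 were called by edgeR against 14.1% of all arms, 0 had an unadjusted p under 0.05 against 20.5%, and DESeq2 called 1 against 23.9%. The log2 changes in BG5 were 0.47 (-0.42 to 1.37) for Mir148a-3p, 0.91 (-0.42 to 2.24) for Mir148b-3p, 0.88 (-1.06 to 2.81) for Mir130b-3p, -0.05 (-2.19 to 2.09) for Mir152-3p, -0.05 (-1.02 to 0.92) for Mir130b-5p and -0.06 (-4.24 to 4.13) for Mir130a-3p.

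The BG5 values depend on how the libraries are scaled. Trimmed-mean (TMM) factors were 1.86 and 1.26 in the BG5 non-PGCLC libraries, those with the high mesenchyme list, and 1.13 and 0.784 in BG5 mPGCLCs. With total reads as the only scale, the median of all arms in BG5 moved by -0.69 on the log2 scale, Mir148a-3p went to -0.33 and Mir130b-5p to -0.81, neither called by edgeR. In E14 the same change of scale moved the median by 0.12.

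The difference between the lines' cell-type effects was tested directly. By edgeR 0 of 13 arms were called against 5.7% of all arms, 0 had an unadjusted p under 0.05 against 14.8% of all arms, and the smallest adjusted p was 0.562 (Mir152-3p). DESeq2 called 2, Mir152-5p and Mir301-5p, against 14.1% of all arms.

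Among the non-PGCLCs of E14, BG5 and SGET, edgeR called 18.9% of all arms and 0 of the 13 arms of the families, with 0 at an unadjusted p under 0.05 (27.6% of all arms) and a smallest adjusted p of 0.313 (Mir148a-3p). DESeq2 called 1, Mir148a-5p, against 33.2% of all arms with an adjusted p. Without replicate 1 of SGET non-PGCLCs, edgeR called 1 of the 14 arms then tested, Mir130a-3p, which had no read in the SGET library that remained, and 159 (22.6%) of all arms. Between BG5 and E14 mPGCLCs, edgeR called 10.2% of all arms and 0 of 13, with 0 at an unadjusted p under 0.05 (17.8% of all arms), a smallest adjusted p of 0.472 (Mir148a-3p) and 0 called by DESeq2 (21.2% of all arms). These comparisons share libraries with those above.

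The family totals are given as a description, without a test. The miR-148/miR-152 total was 798 and 979 RPM in E14 mPGCLCs against 416 and 330 RPM in E14 non-PGCLCs, and 888 and 605 RPM in BG5 mPGCLCs against 1246 and 506 RPM in BG5 non-PGCLCs. The miR-130/miR-301 total was 763 and 557 RPM in E14 mPGCLCs against 345 and 383 RPM in E14 non-PGCLCs, and 719 and 711 RPM in BG5 mPGCLCs against 1399 and 830 RPM in BG5 non-PGCLCs. On this scale both totals were higher in E14 mPGCLCs than in E14 non-PGCLCs, by 2.38-fold for miR-148/miR-152 and 1.79-fold for miR-130/miR-301 on the mean of log2 values. As a share of miRNA reads, the miR-130/miR-301 total was 0.1995% ± 0.0319 (SD, n = 2) in E14 mPGCLCs and 0.183% ± 0.0462 (SD, n = 2) in E14 non-PGCLCs, which overlapped. The miR-148/miR-152 total was 0.232% and 0.311% of miRNA reads in E14 mPGCLCs against 0.181% and 0.185% in E14 non-PGCLCs, which did not overlap, and the log2 difference fell from 1.25 to 0.55 on this scale. In BG5 the miR-148/miR-152 difference was -0.12 on the RPM scale and 0.44 per miRNA read. The former was 0.54 without replicate 1 of BG5 non-PGCLCs, 0.16 without replicate 2 of BG5 mPGCLCs and -0.77 without replicate 2 of BG5 non-PGCLCs.

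**Figure D5:**
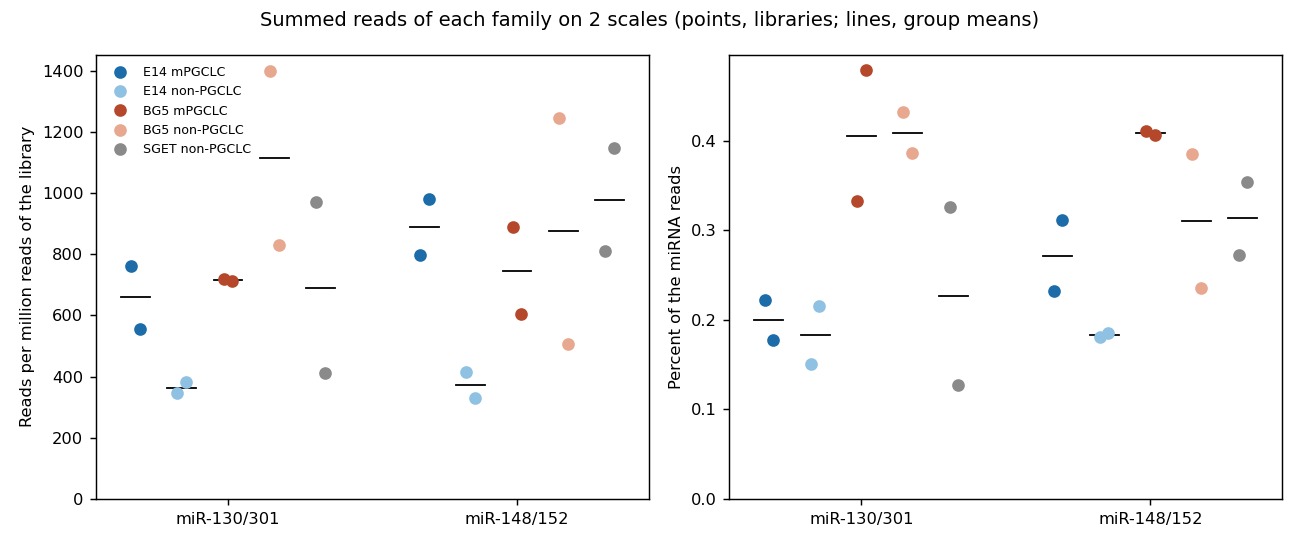
RPM of all arms of each family (left) and as a percentage of the miRNA reads (right), with points for libraries and lines for group means. On the left the miR-130/miR-301 points of BG5 non-PGCLCs (1399 and 830 RPM) lie above those of BG5 mPGCLCs, and on the right these groups overlap.

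The patterns of log2(RPM + 1) over the 10 libraries were compared with those of 364 other arms with a mean of at least 10 RPM. The arms whose pattern was closest to the miR-130/miR-301 total were miR-16-5p (merged from Mir16-1 and Mir16-2), miR-103-3p (merged from Mir103-1 and Mir103-2) and Mir27b-3p, with root mean square differences of 0.33, 0.35 and 0.41 log2 units, against a median of 1.68 over the 364 arms. For miR-148/miR-152 they were Mir92-1-3p (0.27), Mir30a-5p (0.36) and miR-16-5p (0.37), against a median of 1.83. The totals had a root mean square spread of 0.61 and 0.60 log2 units over the libraries. The median over the arms was 1.74, and 92.0% of the arms had a larger spread than either total. Each total is a sum of several arms, whereas the 364 are single arms down to a mean of 10 RPM. The spreads are therefore not like for like and do not show that the families were unusually steady. The families were 0.60 log2 units from each other, about as far as the spread of each. All points share their library's depth and scaling. An arm and a total that both have a small spread also differ little, so this closeness does not by itself show a shared pattern.

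Outside the families, the letters AGUGCA within bases 1 to 9 of the most frequent read were found in 1 other arm, Mir291b-3p of the miR-290 cluster, whose seed is AAGUGCA. It had a median of 24.3 RPM and was called by edgeR in 0 of the 6 comparisons, with a log2 change of 0.58 over E14 and BG5 (adjusted p = 0.997).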

How the data were processed

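Small RNA of 5 groups with 2 libraries each was sequenced. The authors trimmed reads with cutadapt 3.2 and mapped them with STAR 2.5.3a to GRCm38, and the deposited files give each distinct sequence with its raw count. The kit's random bases were not used to remove PCR copies. Here reads of 18 to 26 nt were assigned to arms of 1174 GENCODE M21 hairpins when their first 18 bases matched exactly, with up to 2 mismatches after them. Arms sharing over 50% of their reads were merged, and ambiguous reads left out. Counts were tested with edgeR 4.0.16 (quasi-likelihood, TMM, filterByExpr, all 10 libraries, total reads as library size, Benjamini-Hochberg over 561 arms), with DESeq2 1.42.0 (R 4.3.3) as an alternative, whose percentages are over the arms it gave an adjusted p. Shares within an arm or hairpin needed 10 reads and were compared by exact permutation (Benjamini-Hochberg over 14 tests). There were 70 arrangements for 4 against 4 libraries, and fewer where a library had no share. The permutation code was checked against scipy 1.17.1. A count of 0 was taken to allow up to 3 reads in that library. Confidence intervals are at 95%. Alternatives were other scalings, filters, exact reads, reads of 20 to 24 nt, a replicate block, only the samples compared and leaving out each library. The fit and the permutation code were tested on simulated data. Every arm of the 7 hairpins is reported. The members and lists were chosen with earlier results of these data known.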

Additional observations from a re-analysis of the deposited data

Results flagged for a closer look

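The miR-130/miR-301 total moved in opposite directions in the lines when counted in RPM. Both E14 mPGCLC libraries were above both E14 non-PGCLC libraries, with a log2 difference of 0.84, and both BG5 mPGCLC libraries were below both BG5 non-PGCLC libraries, with a log2 difference of -0.59. The latter was -0.22 without replicate 1 and -0.97 without replicate 2 of BG5 non-PGCLCs, and the former was 0.62 to 1.07 when 1 library was left out. The difference between the lines was not tested, since the total is a sum over chosen members. Per miRNA read the differences were 0.14 in E14 and -0.03 in BG5.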

How the results depend on the processing

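Over all miRNAs, DESeq2 called 143 arms over E14 and BG5, 55 within E14, 121 within BG5, 76 for the difference between the lines and 103 between the mPGCLCs. Within E14, against 16 called, edgeR called 8 with total-read scaling, 30 with all arms that had a read, 26 with the replicate block and 8 with only the samples compared, and 14 to 25 when 1 library was left out (25 without replicate 1 of the non-PGCLCs). For the difference between the lines, leaving out 1 library gave 33 to 49 (49 without replicate 2 of the BG5 non-PGCLCs). The cause of these changes was not tested.

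Of the arms of the families, against 0 in edgeR, DESeq2 called 3 of 13 over both lines, 2 within E14, 1 within BG5, 2 for the difference between the lines and 1 among the non-PGCLCs, where it called 25.5%, 10.6%, 23.9%, 14.1% and 33.2% of all arms with an adjusted p. Over both lines edgeR called 1 with a filter of 10 reads in 5 libraries (84 over all arms, 21.1%) and 1 with only the samples compared (98, 18.3%), and 0 to 1 when 1 library was left out (75 to 95). Among the non-PGCLCs leaving out 1 library gave 0 to 1 (117 to 159).

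Some estimates that were not called turned their direction. Over both lines Mir152-3p went to -0.11 with exact reads. Within E14, Mir130b-3p went to -0.42 when scaled to miRNA reads outside the miR-290 cluster and to -0.16 with exact reads, and Mir148b-3p went to -0.31 when scaled in that way. Within BG5, Mir130a-3p went to 0.082 with the replicate block, 0.30 with exact reads and 0.15 with only the samples compared, which also took Mir130b-5p to 0.15 and Mir152-3p to 0.13. Mir148a-3p went to -0.33 in BG5 with total-read scaling. The 5′ shifted share with exact reads went to 0.15 points for Mir148a and 3.13 points for Mir148b.

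Leaving out 1 library at a time, Mir152-3p over both lines ranged from 0.00012 (without replicate 1 of BG5 mPGCLCs) to 1.44. Mir148a-3p within BG5 ranged from 0.13 (without replicate 2 of BG5 non-PGCLCs) to 1.20 (without replicate 1 of BG5 non-PGCLCs). The log2 changes that turned ranged from -0.54 to 1.36 for Mir130b-3p and -0.076 to 0.57 for Mir148b-3p within E14, and within BG5 from -2.13 to 0.76 for Mir152-3p, -0.34 to 0.28 for Mir130b-5p and -0.99 to 0.52 for Mir130a-3p. The differences in share ranged from -1.25 to 0.93 points (shifted, Mir148a), -3.56 to 0.40 points (shifted, Mir130b) and -0.35 to 8.87 points (minor arm, Mir130b). For the shifted share of Mir148b the range was -5.45 to -0.026 points. The cause was not tested.

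Family totals moved with the denominator. Per miRNA read the log2 difference in E14 was 0.14 for miR-130/miR-301 and 0.55 for miR-148/miR-152, and in BG5 it was -0.033 for miR-130/miR-301 and 0.44 for miR-148/miR-152, which was -0.12 in RPM (-0.77 to 0.54 without 1 library). Per miRNA read outside the miR-290 cluster miR-130/miR-301 was at 0.18 in E14 and 0.12 in BG5, and miR-148/miR-152 at 0.59 and 0.60.

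Deviations of same-numbered mPGCLC and non-PGCLC libraries correlated at -0.047 in E14 and -0.0042 in BG5. Whether same-numbered libraries came from the same embryoid bodies was not tested. The replicate block called 0 arms of the families in each comparison, and over all arms 91 over both lines, 26 within E14, 87 within BG5, 40 for the difference between the lines, 130 among the non-PGCLCs and 67 between the mPGCLCs. With 2 libraries a group and PCR copies in the counts, the interval of Mir130b-5p over both lines ran from 0.762-fold to 1.98-fold.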
